A study of Rattus norvegicus with 12 samples.

Results

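Aquaporins and the vasopressin V2 receptor were followed in renal cortex of rat kidney grafts with and without the export pump MRP2. The members were Aqp1, Aqp2, Aqp3, Aqp4, Aqp6, Aqp7, Aqp11 and Avpr2, that is 8 of the genes that the platform annotation names alone on a probe set, and they had 12 probe sets among 31042 on the array that are not controls. Of these, 8 probe sets passed the filter on level and were tested, and they stood for 7 of the 8 genes. Each of the 12 arrays held the cortex of 1 graft. The 6 ABCC2-/- grafts were kidneys deficient in MRP2 (Abcc2), and the 6 wild-type grafts carried the intact gene. All 12 kidneys had been transplanted into wild-type recipients, and all rats were male. Strain, age, the allele behind the deficiency and the time after transplantation are not given in the sources used here, nor is it said whether each graft had its own donor rat. The p-values therefore measure the spread between these grafts.

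Aquaporins are channels of the plasma membrane that let water pass along an osmotic gradient, and some also carry glycerol. In the proximal tubule and thin descending limb Aqp1 gives a constant path for water. In principal cells of the connecting tubule and collecting duct, vasopressin binds the V2 receptor (Avpr2) on the basolateral side, cAMP rises through a stimulatory G protein, and vesicles with Aqp2 fuse with the apical membrane. Water then leaves the cell through Aqp3 and Aqp4 on the basolateral side, and over a longer time cAMP also raises transcription of Aqp2.

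The promoter windows of Aqp2, of its basolateral partner Aqp3 and of the receptor gene Avpr2 are shown because transcription of Aqp2 is the slow output of this pathway. Each runs from 250 bases before to 50 bases after the annotated start, in RefSeq annotation of the GRCr8 build, and 7 of 8 members matched such a window, all but Aqp7. Capitals mark matches, on either strand, to the core of the cAMP response element (TGACGTC, or GACGTCA on the other strand), to a GATA motif (AGATAA or TTATCT) and to an E-box (CACGTG). The motifs do not overlap in these windows. The windows lie at chr7:132590036-132590335 on the plus strand (Aqp2), chr5:61040634-61040933 on the minus strand (Aqp3) and chrX:156784889-156785188 on the plus strand (Avpr2), each printed 5′ to 3′ along its gene.
Aqp2: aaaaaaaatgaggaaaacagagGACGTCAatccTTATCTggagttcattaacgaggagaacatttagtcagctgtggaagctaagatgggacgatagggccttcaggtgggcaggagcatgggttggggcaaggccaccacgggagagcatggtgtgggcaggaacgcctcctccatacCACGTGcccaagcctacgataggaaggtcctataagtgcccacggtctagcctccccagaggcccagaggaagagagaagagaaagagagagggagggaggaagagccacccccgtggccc
Aqp3: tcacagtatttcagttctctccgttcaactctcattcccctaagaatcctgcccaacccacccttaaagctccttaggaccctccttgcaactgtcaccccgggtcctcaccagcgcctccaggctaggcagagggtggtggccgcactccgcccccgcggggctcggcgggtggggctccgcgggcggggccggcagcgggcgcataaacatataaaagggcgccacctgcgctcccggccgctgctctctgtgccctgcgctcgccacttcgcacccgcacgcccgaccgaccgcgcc
Avpr2: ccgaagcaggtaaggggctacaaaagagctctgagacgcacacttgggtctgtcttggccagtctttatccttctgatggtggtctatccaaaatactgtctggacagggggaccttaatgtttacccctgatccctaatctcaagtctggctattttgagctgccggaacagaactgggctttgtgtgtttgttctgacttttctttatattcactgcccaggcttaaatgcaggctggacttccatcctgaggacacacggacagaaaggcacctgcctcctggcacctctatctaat
The Aqp2 window held all 3 motifs. The first base of GACGTCA stood 228 bases before the start, that of TTATCT 217 bases and that of CACGTG 71 bases before it. These letters were not found in the windows of Aqp3 and Avpr2. Of the windows of Aqp1, Aqp4, Aqp6 and Aqp11, that of Aqp6 held an E-box, and the others held none of the 3 motifs. Over 33469 RefSeq windows of this length 3.22% held the cAMP element core, 11.6% the GATA motif and 6.42% the E-box. In the gene order of that annotation, Aqp2, Aqp5 and Aqp6 are consecutive protein-coding genes on chromosome 7, and Aqp7 and Aqp3 are neighbours on chromosome 5.

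The arrays themselves differed in ways that touch every value below. Abcc2, the check of the labels, had signals of 0.0387 to 0.213 in ABCC2-/- grafts and 0.787 to 0.987 in wild-type grafts (6.47-fold lower, adjusted p = 8.35e-06). The poly-A controls, bacterial transcripts that are added to RNA ahead of labelling in this type of assay, were higher in every ABCC2-/- array than in every wild-type array. The fold of the geometric means was 6.56 for Dap, 6.20 for Thr, 5.51 for Lys and 4.03 for Phe, so a difference in labelling and the difference in genotype cannot be told apart. Within each genotype the arrays also fell into 2 sets of 3, read from the sign of the first component of the genotype-centred values, which held 33% of their variance. Array set 2 held ABCC2-/- replicates 3, 10 and 14 and wild-type replicates 4, 7 and 8. Between the sets 30.3% of probe sets had an adjusted p under 0.05 in limma. The sets were read from these same values, so this share is large by construction and is no test of the sets. The hybridization control Cre was higher in set 2 within each genotype, at 85.8 to 99.7 in ABCC2-/- arrays of set 2 and 65.9 to 73.9 in those of set 1, and at 73.0 to 107 in wild-type arrays of set 2 and 61.1 to 65.8 in those of set 1. The log2 ratio of the Gapdh 3′ to 5′ probe sets, a measure of RNA quality and labelling, was 0.359 to 0.449 in the ABCC2-/- arrays of set 2 and 0.710 to 0.947 in the other 9 arrays. Array sets are not groups of the study, and member values are given within them.

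**Figure D1:**
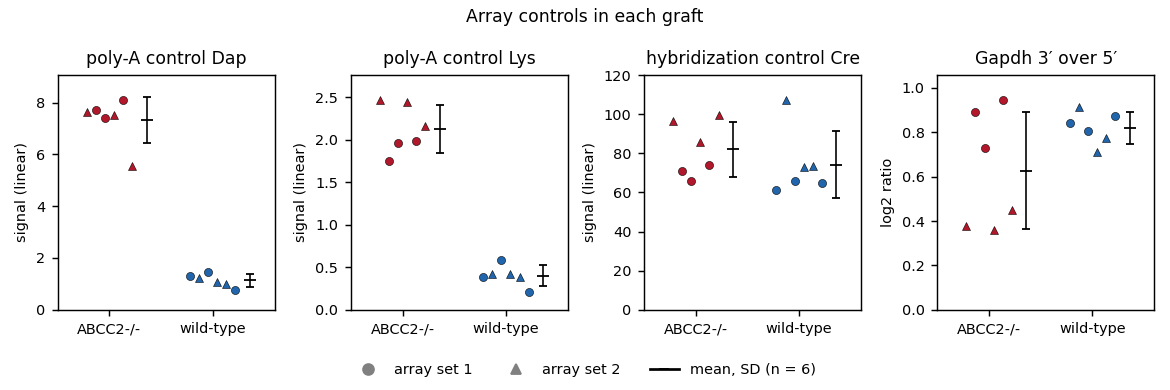
Signals of the poly-A controls Dap and Lys and of the hybridization control Cre (linear), and the log2 ratio of the Gapdh 3′ to 5′ probe sets, for the 6 ABCC2-/- and the 6 wild-type arrays, with mean and SD beside the points. Dap lies between 5.55 and 8.11 in ABCC2-/- arrays and between 0.765 and 1.44 in wild-type arrays, and the low Gapdh ratios belong to the ABCC2-/- arrays of set 2 (triangles).

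None of the 8 tested probe sets passed an adjusted p of 0.05 between ABCC2-/- and wild-type grafts in limma with Benjamini-Hochberg adjustment over 18625 probe sets, of which 0.0215% passed. The members' adjusted p lay between 0.606 and 0.848. At an unadjusted p under 0.05 there were 2 member probe sets with higher signal in ABCC2-/- grafts, 1 of Avpr2 and 1 of Aqp1, and 0 with lower signal. Of all tested probe sets 7.98% were under that p, 3.35% higher and 4.63% lower in ABCC2-/- grafts. A log2 difference above 0 was found for 5 of the 8 and for 45.4% of all. The median of the 8 was 0.085, against -0.023 over all tested probe sets. In none of the 12 member probe sets were the genotypes free of overlap, which held for 0.161% of tested probe sets with every ABCC2-/- array above and 0.274% with every one below. Every difference is log2 signal in ABCC2-/- minus that in wild-type grafts, and SE is its standard error from limma. The precision was limited by the number of arrays, 6 per genotype. In pieces of cortex, fewer cells of a type and less RNA per cell cannot be told apart.

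**Figure D2:**
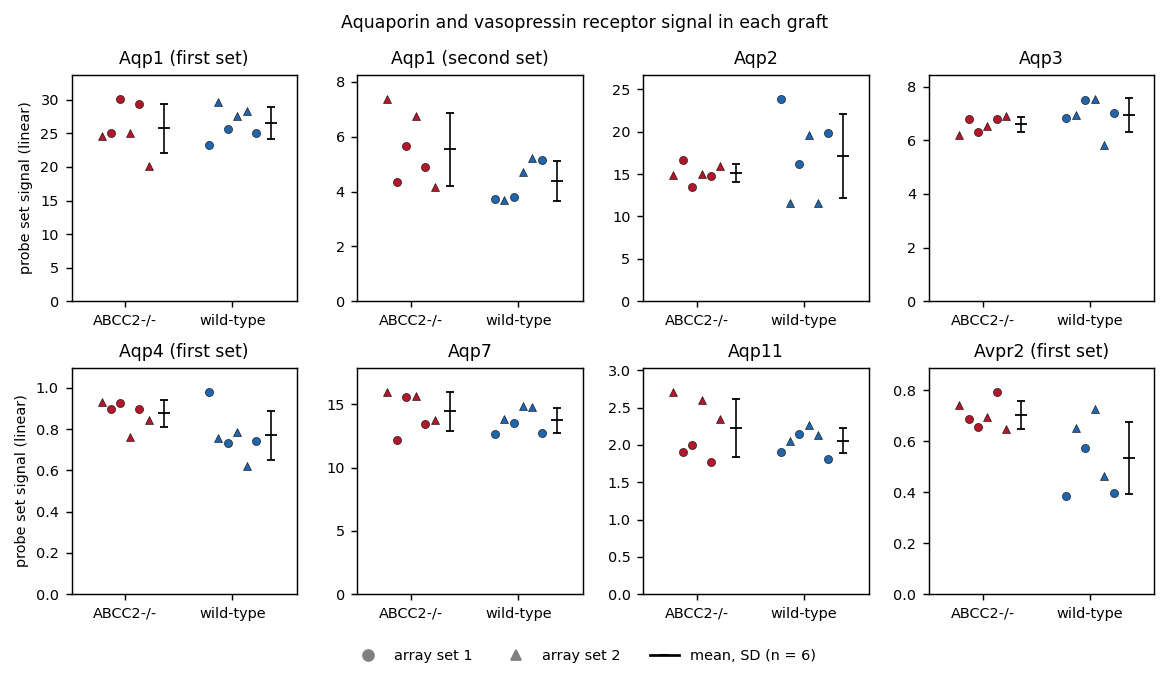
Probe set signal (linear) of the 8 tested member probe sets, 1 point for each ABCC2-/- and wild-type graft, circles for array set 1 and triangles for array set 2, with mean and SD beside the points. The first set of a gene is its brighter one. The genotypes overlap in every panel. Aqp2 spreads from 13.5 to 16.7 in ABCC2-/- grafts and from 11.6 to 23.9 in wild-type grafts.

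Avpr2, the receptor that couples vasopressin to cAMP, had the lowest p of the members. Its brighter probe set (1369873_at) had a lowest signal of 0.649, a median of 0.692 and a highest of 0.794 in ABCC2-/- grafts, against 0.386, 0.519 and 0.728 in wild-type grafts. The ABCC2-/- arrays lay close together, and 4 of the 6 wild-type arrays lay below all of them, while the other 2 lay within their range. The means were 0.705 ± 0.0552 in ABCC2-/- and 0.533 ± 0.141 in wild-type grafts (SD, n = 6 each), a log2 difference of 0.44 (SE 0.16) or 1.36-fold, with a 95% interval for the fold of 1.08 to 1.70. The exact two-sided permutation p was 0.0238, and the adjusted p over all probe sets was 0.606, so the difference did not pass.

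The other Avpr2 probe set (1371265_at) was dim and below the level filter. It had 0.0993, 0.151 and 0.230 (lowest, median, highest) in ABCC2-/- grafts and 0.0424, 0.121 and 0.153 in wild-type grafts. Its log2 difference was 0.41, with an exact two-sided permutation p of 0.171. The genotypes overlapped in both probe sets. With the Gapdh ratio as a covariate the difference of the dim probe set was 0.056, and that of the brighter one 0.44. Without wild-type replicate 4, the array under the floor, the dim probe set had 0.27. In array set 1 the brighter probe set was at 0.657 to 0.794 in ABCC2-/- and 0.386 to 0.573 in wild-type grafts (log2 difference 0.68, adjusted p = 0.261 in that set alone). In array set 2 it was at 0.649 to 0.744 in ABCC2-/- and 0.465 to 0.728 in wild-type grafts (log2 difference 0.20, adjusted p = 0.544). For the dim probe set the order was the other way, with 0.074 in array set 1 and 0.74 in array set 2. With array set as a block the adjusted p of the brighter probe set was 0.126. The array sets were read from these same values, so p-values within a set or with the block are too small by construction.

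Aqp2, the vasopressin-regulated channel of the apical membrane, did not differ detectably in mean level. Its probe set (1368568_at) had a lowest signal of 13.5, a median of 14.95 and a highest of 16.7 in ABCC2-/- grafts, and 11.6, 17.9 and 23.9 in wild-type grafts. Every ABCC2-/- array lay inside the wild-type range. The means were 15.1 ± 1.10 in ABCC2-/- and 17.1 ± 4.91 in wild-type grafts (SD, n = 6 each), a log2 difference of -0.13 (SE 0.15, fold 0.914 with a 95% confidence interval of 0.729 to 1.14, adjusted p = 0.764).

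The spread of Aqp2 differed more than its mean, an observation made after the values were seen and given without a test. The SD of log2 signal was 0.105 in ABCC2-/- and 0.431 in wild-type grafts. A wild-type SD at least this many times the ABCC2-/- SD was found in 0.392% of tested probe sets. The coefficient of variation of Aqp2 was 7.26% in ABCC2-/- and 28.6% in wild-type grafts, against medians of 16.9% and 14.9% over all tested probe sets. Wild-type replicates 4 and 8 were low at 11.6 each, and wild-type replicate 1 was high at 23.9. By array set, Aqp2 was 13.5 to 16.7 in ABCC2-/- and 16.2 to 23.9 in wild-type grafts of set 1 (log2 difference -0.40, adjusted p = 0.293), and 14.92 to 15.95 in ABCC2-/- and 11.6 to 19.6 in wild-type grafts of set 2 (0.14, adjusted p = 0.633). The change of the difference between array sets, fitted as an interaction, was 0.54 (SE 0.24, adjusted p = 0.243 in limma). The array sets were read from these same values and the interaction was added after seeing them. These p-values of the array sets are therefore not read as a test.

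Aqp3, a basolateral channel of principal cells that also carries glycerol, varied little. Its probe set (1387100_at) had 6.20, 6.66 and 6.90 (lowest, median, highest) in ABCC2-/- grafts and 5.83, 6.98 and 7.55 in wild-type grafts. The ABCC2-/- range lay within the wild-type range. The log2 difference was -0.072 (SE 0.08), the 95% interval for the fold 0.849 to 1.07, and the adjusted p 0.747. As for Aqp2, the SD was smaller in ABCC2-/- grafts (0.284) than in wild-type grafts (0.626, n = 6 each). This did not hold for all members. The coefficient of variation was larger in ABCC2-/- grafts for both Aqp1 probe sets (14.0% against 8.92% and 23.8% against 16.4%). It was also larger for Aqp7 (10.55% against 7.05%) and Aqp11 (17.5% against 8.18%). For the tested Aqp4 and Avpr2 probe sets it was smaller (7.3% against 15.3% and 7.8% against 26.4%). In array set 1 Aqp3 was at 6.32 to 6.81 in ABCC2-/- and 6.83 to 7.51 in wild-type grafts (log2 difference -0.10, adjusted p = 0.598 in that set alone). In array set 2 it was at 6.20 to 6.90 in ABCC2-/- and 5.83 to 7.55 in wild-type grafts (log2 difference -0.041).

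Aqp4, the other basolateral channel, was measured by 3 probe sets, of which 1 was above the level filter. This probe set (1372190_at) had 0.762, 0.899 and 0.930 (lowest, median, highest) in ABCC2-/- grafts and 0.620, 0.750 and 0.981 in wild-type grafts. In wild-type replicate 1 the signal was above all ABCC2-/- arrays, and the other 5 wild-type arrays were below the ABCC2-/- median. The log2 difference was 0.20 (SE 0.11, 95% interval for the fold 0.972 to 1.35, adjusted p = 0.634), and it was 0.16 in array set 1 and 0.23 in array set 2. The other probe sets (1368981_at and 1387397_at) were at or below the floor of 0.0694, the level to which low values were raised, in 3 and 5 of the 6 arrays of each genotype. Differences of such probe sets have no order below the floor and are not read as changes.

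**Figure D3:**
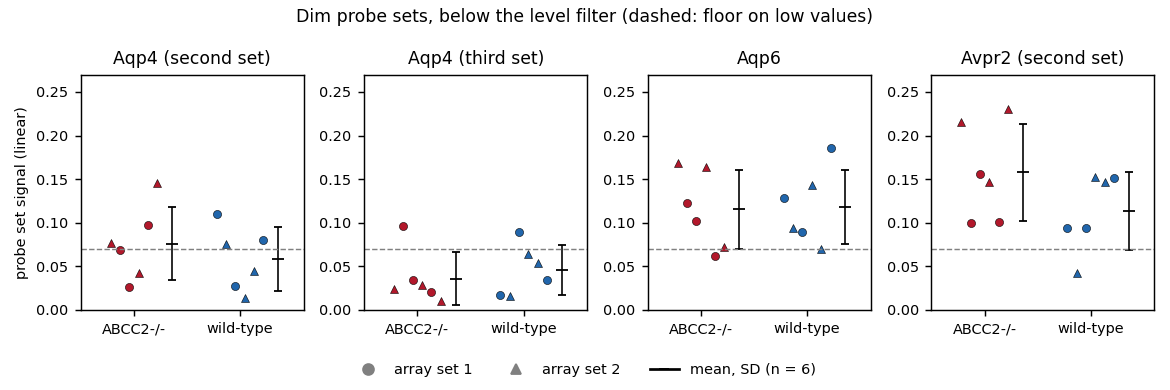
Probe set signal (linear) of the 4 member probe sets below the level filter in each ABCC2-/- and wild-type graft, with mean and SD beside the points and the floor of 0.0694 as a dashed line. Most points of the Aqp4 panels lie at or under the floor, those of Aqp6 and the second Avpr2 set mostly above it, and the genotypes overlap in all 4 panels.

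Aqp1, the channel of the proximal tubule, thin descending limb and part of the endothelium, gave differing values by its 2 probe sets. The brighter one (1369625_at) had 20.2, 25.1 and 30.2 (lowest, median, highest) in ABCC2-/- grafts and 23.3, 26.6 and 29.7 in wild-type grafts, with both ends of the wild-type range inside the ABCC2-/- range. Its log2 difference was -0.053 (SE 0.10, 95% interval for the fold 0.835 to 1.11, adjusted p = 0.848). The other (1387651_at) had 4.17, 5.28 and 7.38 in ABCC2-/- grafts and 3.70, 4.27 and 5.21 in wild-type grafts, and 3 of the 6 ABCC2-/- arrays lay above every wild-type array. Its log2 difference was 0.32 (SE 0.15, 95% interval for the fold 1.005 to 1.54, exact permutation p = 0.0931, adjusted p = 0.614).

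The brighter Aqp1 probe set went opposite ways in the array sets. In set 1 its signal was 25.1 to 30.2 in ABCC2-/- and 23.3 to 25.6 in wild-type grafts (log2 difference 0.19, adjusted p = 0.372). In set 2 it was 20.2 to 25.1 in ABCC2-/- and 27.5 to 29.7 in wild-type grafts (-0.30, adjusted p = 0.0737). The change of the difference between array sets, as an interaction, was -0.49 (SE 0.13, adjusted p = 0.0519). The sets were read from these values and the interaction was added after seeing them. Its p is therefore too small by construction and is not read as support. The dimmer Aqp1 probe set had a positive difference in both, 0.24 in set 1 and 0.40 in set 2. With the Gapdh ratio as a covariate, its difference was 0.17, against 0.32 without it.

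Aqp7, an aquaglyceroporin of the late proximal tubule and of fat cells, had 12.2, 14.7 and 16.0 (lowest, median, highest) in ABCC2-/- grafts and 12.7, 13.7 and 14.9 in wild-type grafts (1368317_at). The ABCC2-/- arrays reached beyond the wild-type range at both ends. The log2 difference was 0.069 (SE 0.08, 95% interval for the fold 0.928 to 1.19, adjusted p = 0.768), with 0.078 in array set 1 and 0.060 in array set 2. Fat cells are another possible source of Aqp7, and of 11 markers of them 10 had a named probe set and 5 passed the level filter. None of the 5 passed the test, and 1 was lower at an unadjusted p under 0.05. Their summed signal was 15.0 to 18.9 in ABCC2-/- and 18.8 to 21.4 in wild-type grafts, most of it from Gpd1, a glycerol-3-phosphate dehydrogenase that kidney also expresses. Lpl, lipoprotein lipase, had -0.085 (SE 0.14, adjusted p = 0.829). Leptin (Lep) had medians of 0.0181 in ABCC2-/- and 0.0147 in wild-type grafts, below the floor, and adiponectin (Adipoq) had medians of 0.552 and 0.610. The part of fat cells in the Aqp7 signal was not tested.

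Aqp11, an aquaporin of the endoplasmic reticulum in proximal tubule cells, moved with the array sets. Its probe set (1384877_at) had 1.78, 2.17 and 2.71 (lowest, median, highest) in ABCC2-/- grafts and 1.81, 2.09 and 2.26 in wild-type grafts. The 3 ABCC2-/- arrays above every wild-type array were those of set 2, at 2.35 to 2.71, and the ABCC2-/- arrays of set 1 lay at 1.78 to 1.99. The log2 difference between genotypes was 0.10 (SE 0.11, 95% interval for the fold 0.909 to 1.265, adjusted p = 0.756), with -0.047 in array set 1 and 0.25 in array set 2. Between array sets 2 and 1, with genotype in the limma fit, Aqp11 differed by 0.29 (SE 0.08, adjusted p = 0.0116). No other tested member probe set was under 0.05 there, against 30.3% of all probe sets. The array sets were read from these same values, so such p-values are too small by construction and are not read as a test. The 3 ABCC2-/- arrays of set 2 are those with the low Gapdh ratios given above, and with this ratio as a covariate the genotype difference was -0.084. The part of RNA quality in this value was not tested.

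Aqp6, a channel of acid-secreting intercalated cells found on intracellular vesicles in rat, was below the level filter. Its probe set (1369298_at) had 0.0621, 0.112 and 0.169 (lowest, median, highest) in ABCC2-/- grafts and 0.0699, 0.111 and 0.1855 in wild-type grafts, with 1 ABCC2-/- array under the floor. The log2 difference was -0.036, with an exact permutation p of 0.887. It was -0.43 in array set 1 and 0.36 in array set 2. Of 9 tested intercalated cell markers 0 passed in limma and 3 were lower at an unadjusted p under 0.05, against 4.63% of all tested probe sets. Their median difference was -0.16, against -0.023 over all. Car2 (0.030) and Atp6v1g3 (0.061) had a positive difference and the other 7 a negative one. The list was not split by kind of intercalated cell. The anion exchangers Slc26a4 (log2 difference -0.42, SE 0.13) and Slc4a1 (-0.41, SE 0.12) had the lowest p of this list, each with an adjusted p of 0.606. The summed signal of the 9 was 73.0 to 92.5 in ABCC2-/- and 74.4 to 91.0 in wild-type grafts. The largest signals in it were those of Car2, Atp6v1g3 and Atp6v0a4, so it hardly reflects dimmer genes such as Slc26a4 and Slc4a1.

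**Figure D4:**
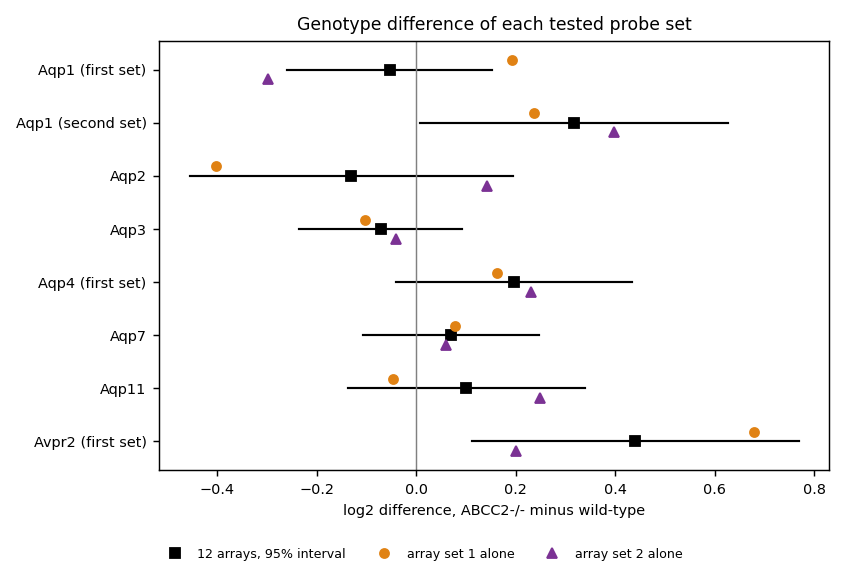
Log2 difference between ABCC2-/- and wild-type grafts for the 8 tested member probe sets, over all 12 arrays (squares, with 95% confidence interval) and within each array set of 3 against 3 (circle and triangle). The intervals of Avpr2 (first set) and Aqp1 (second set) lie above 0 before adjustment, and Aqp1 (first set), Aqp2 and Aqp11 have opposite signs in the 2 array sets.

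Genes listed for vasopressin and cAMP signalling and for Aqp2 trafficking did not pass either. The signalling list also holds other receptors, Avpr1a, Avpr1b and Oxtr. Of 25 genes of vasopressin and cAMP signalling 21 were tested and 0 passed in limma in either direction, with 1 higher and 1 lower at an unadjusted p under 0.05, and 7 had a positive and 14 a negative difference (median -0.060). Prkacb, a catalytic subunit of protein kinase A, had medians of 6.00 in ABCC2-/- and 7.40 in wild-type grafts (log2 difference -0.34, SE 0.14, adjusted p = 0.610). Arrb1, an arrestin that desensitizes receptors of this class, had 0.585 in ABCC2-/- and 0.480 in wild-type grafts (0.37, SE 0.17, adjusted p = 0.614). Both overlapped between genotypes. Of 28 genes of Aqp2 trafficking and turnover 25 were tested and 0 passed, with 1 higher and 1 lower at an unadjusted p under 0.05, and 20 had a negative difference (median -0.070). The 2 with the lowest p were Stxbp2, which binds syntaxins in vesicle fusion (-0.31, SE 0.11, adjusted p = 0.606), and Anxa2, a membrane-binding annexin (0.23, SE 0.11, adjusted p = 0.614).

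Transcription factors of Aqp2 and the collecting duct and genes of the response to tonicity had medians near that of all probe sets. Of 18 tested transcription factors 0 passed, with 2 higher and 1 lower at an unadjusted p under 0.05. Of them 9 had a positive and 9 a negative difference, and the median was -0.0057. Tfcp2l1, a factor of collecting duct cells, had a log2 difference of -0.39 (SE 0.14), with 7.93, 11.7 and 12.5 (lowest, median, highest) in ABCC2-/- and 11.1, 13.5 and 17.2 in wild-type grafts. Nfat5, the factor that responds to high tonicity, had 0.29 (SE 0.11), with 4.10, 5.05 and 5.99 in ABCC2-/- and 3.57, 4.09 and 4.74 in wild-type grafts. Both had an adjusted p of 0.606. Of the 15 tested genes of the tonicity list, which holds Nfat5 too, 0 passed, 1 was higher and 2 were lower at an unadjusted p under 0.05, 9 had a positive difference and the median was 0.057. Gpd1 had -0.28 (SE 0.09, adjusted p = 0.606), with 10.7 to 13.8 in ABCC2-/- and 13.8 to 17.8 in wild-type grafts, without overlap before rounding.

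Urea, sodium and hormone partners of the collecting duct gave no call either. Of 27 genes 19 were tested and 0 passed, with 0 higher and 1 lower at an unadjusted p under 0.05, 9 with a positive and 10 with a negative difference (median -0.0034). Krt8, a keratin of simple epithelia, had -0.28 (SE 0.12, adjusted p = 0.612), and Cdh1, the epithelial cadherin, -0.20 (SE 0.11, adjusted p = 0.628). Of the other aquaporins, Aqp5, Aqp8, Aqp9 and Mip had medians between 0.0146 and 0.0901 in ABCC2-/- and between 0.0181 and 0.0874 in wild-type grafts, around the floor, and were not tested. Aqp12a, known as an aquaporin of the pancreas, passed the level filter, with 0.236, 0.280 and 0.370 (lowest, median, highest) in ABCC2-/- and 0.0212, 0.232 and 0.303 in wild-type grafts. Its log2 difference was 0.56 (SE 0.30, adjusted p = 0.628).

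**Figure D5:**
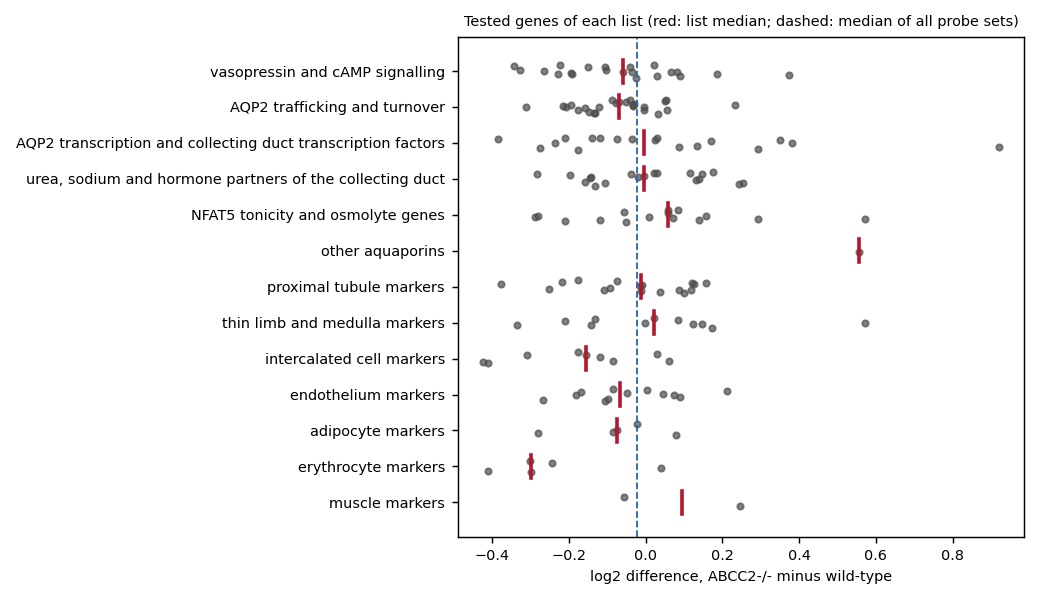
Log2 difference between ABCC2-/- and wild-type grafts of each tested gene (points) in the pathway and marker lists, with the list median in red and the median of all tested probe sets, -0.023, dashed. The list medians lie between -0.30 (erythrocytes, 5 genes) and 0.56 (other aquaporins, 1 gene), and no gene drawn passed the adjusted threshold.

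Markers of the proximal tubule and of endothelium were present in both genotypes. Of 20 proximal tubule markers 17 were tested and 0 passed in limma, with 2 lower at an unadjusted p under 0.05, a summed signal of 725.4 to 820.7 in ABCC2-/- and 704.9 to 918.8 in wild-type grafts and a median log2 difference of -0.012. Slc5a2, which takes up most filtered glucose, had -0.38 (SE 0.11, adjusted p = 0.606), and Cubn, an endocytic receptor, -0.22 (SE 0.10, adjusted p = 0.623). Of 11 tested genes listed for thin limb and medulla, tissue next to cortex in which Aqp1 and Aqp2 are also expressed, 0 passed. At an unadjusted p under 0.05, 1 was lower. Their summed signal was 111.7 to 141.5 in ABCC2-/- and 110.8 to 143.0 in wild-type grafts. The largest signals in it were those of Umod (medians 56.3 in ABCC2-/- and 53.1 in wild-type grafts) and Fxyd2 (47.3 and 41.5). The sum hardly reflects dimmer genes such as the urea transporter Slc14a2, with medians of 0.203 and 0.192. It is no measure of the part of medulla in these samples, which was not tested. In this list Bsnd, a chloride channel subunit, had -0.33 (SE 0.15, adjusted p = 0.614), and Cryab, a small heat shock protein, 0.57 (SE 0.30, adjusted p = 0.628). Of 12 tested endothelium markers 0 passed, also at an unadjusted p under 0.05. Their sum was 30.5 to 34.5 in ABCC2-/- and 31.0 to 36.8 in wild-type grafts, with Ramp2 at 0.21 and Eng at -0.27 (adjusted p = 0.628 each).

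Red cells, which carry Aqp1, gave 5 tested markers, of which 0 passed and 1 was lower at an unadjusted p under 0.05, with a summed signal of 12.1 to 48.1 in ABCC2-/- and 21.6 to 55.5 in wild-type grafts and a median difference of -0.30. Apart from Slc4a1, which intercalated cells express too, the lowest p was that of the hemoglobin gene Hba-a3 (-0.30, SE 0.27, adjusted p = 0.708). Of 11 muscle markers 2 were tested, Myh1 (0.25, SE 0.12) and Des (-0.056, SE 0.12). The Myh1 probe set, of a type that can match several transcripts, had 37.5 to 64.2 in ABCC2-/- and 36.8 to 47.3 in wild-type grafts, while Acta1, Myh7 and Mb had medians below the floor in both genotypes. Of 8 urothelium markers 7 had a named probe set and 0 passed the level filter. The part of these other cells in the member values was not tested.

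The genes whose signal was most like that of each member over the 12 arrays, after the mean of each genotype was removed, were taken from 10638 other genes by Pearson's r. They describe these arrays, which share the array sets and their controls. Picked as the highest of so many genes over 12 arrays, they have a high r by selection, which was not tested. They were Entpd5, Sipa1 and Adgrl2 for the brighter Aqp1 probe set (r = 0.94 to 0.92), Degs1, Inpp5d and Gas2l3 for Aqp2 (0.89 to 0.87), and Rbm24, Traf7 and Atg16l2 for Aqp3 (0.88 to 0.86). For Aqp4 they were Nap1l5, Rsrp1 and Fbxl12 (0.90 to 0.85), for Aqp7 Cd59b, Entr1 and Aimp2 (0.93 to 0.90), for Aqp11 Fam98b-ps1, Mrpl32 and Dnttip1 (0.98 to 0.96) and for Avpr2 Wdr48, Mdm2 and Tmem51 (0.88 to 0.84). No member was among the 3 of another member. With the mean of each array set within a genotype removed too, the r of these picked genes lay between 0.75 and 0.93.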

How the data were processed

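Renal cortex RNA of 12 grafts was measured on Affymetrix 3′ expression arrays, 1 per graft, per the labels' protocols. The deposited intensity values are linear probe set signals. The submitters' processing notes name MAS5 and GCOS with no version. In the deposited values, each array's signals are whole multiples of 0.1 divided by a constant of its own (104 to 197), and 0.01 is the lowest value. In each array 2.8 to 4.3% of values stood at 0.01, which hides differences between the dimmest probe sets.

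From the deposited values, 57 control probe sets were left out, values under the pooled 20th percentile (0.0694) were set to that floor before log2, which understates folds of dim genes. The 18625 probe sets with a mean at or above the 40th percentile (log2 -2.53) were tested in limma 3.58.1 (R 4.3.3; lmFit, eBayes with a mean-variance trend, Benjamini-Hochberg, genotype as the factor, groups from the titles). Arrays were not normalized further. Exact two-sided permutation tests over 6 against 6 arrays cannot give a p below 0.00216. Probe sets were named through the platform annotation, with symbols updated to GRCr8. A gene of a list was represented by its brightest probe set. Named were all members and, of each list, genes past the threshold or the 2 with the lowest p. Lep, Adipoq, Acta1, Myh7, Mb and the dim aquaporins were also named, as markers at low signal. The members and lists were chosen with earlier results of these data known. Other settings tried were 2 other floors, 2 other filters, quantile and median normalization, no variance trend, array weights, the Gapdh ratio as a covariate, array set, and each array left out. The interaction with array set and the centring by array set were added after seeing the data. The fit was also run on simulated arrays with independent normal values and known folds. These held no array sets and no difference in labelling, so they do not show how the fit handles either.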

Additional observations from a re-analysis of the deposited data

Results flagged for a closer look

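Signals of the poly-A controls lay outside the gene comparison and stood above the wild-type level in every ABCC2-/- array. Their medians were 7.57 in ABCC2-/- and 1.15 in wild-type arrays for Dap, 1.61 and 0.274 for Thr, 1.07 and 0.268 for Phe, and 2.07 and 0.402 for Lys. In the third Aqp4 probe set, ABCC2-/- replicate 5 lay far above the other ABCC2-/- arrays at 0.0956, with the next at 0.0343, a value under the floor. Of 24 groups of member values checked by Dixon's criterion 1 stood apart, where chance gives about 1 in 20.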

How the results depend on the processing

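Of 196 adjusted p of members over 12 alternatives and 12 fits that left out 1 array, 0 were under 0.05, and the lowest was 0.0737 (Aqp1, brighter probe set, array set 2 alone). The sign was kept in 184 of 192 values of the tested member probe sets. The exceptions were the brighter Aqp1 probe set (0.012 with array weights, 0.030 with the Gapdh ratio as a covariate, 0.19 in array set 1 alone), Aqp7 (-0.017) and Aqp11 (-0.084) with the Gapdh ratio, Aqp11 in array set 1 alone (-0.047) and Aqp2 in array set 2 alone (0.14). The cause was not tested. With 1 array left out, the brighter Aqp1 probe set lay between -0.10 and 0.015, the highest without ABCC2-/- replicate 14, Aqp2 between -0.23 and -0.024 (without wild-type replicate 1), and Avpr2 between 0.36 and 0.54. The third Aqp4 probe set had -0.37 with the floor at the 10th percentile, since fewer values were raised. The 4 probe sets past the threshold became 2 with a filter at the 60th percentile, 112 with array set as a block and 1190 in array set 2 alone, and 3 to 5 with 1 array left out. The array sets were read from these data, so the block, the interaction and the fits within a set narrow the spread by construction. No paired analysis was possible because the genotypes share only replicate number 9. Signal near the floor limits Aqp6, the second Avpr2 probe set and 2 of the Aqp4 probe sets.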
